A study of Mus musculus with 4 samples.

Results

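Transcripts of 10 genes that make, break down or regulate polyamines were measured in whole mouse skin of 2 genotypes: Odc1, Amd1, Srm and Sms of synthesis, Sat1, Smox and Paox of catabolism, and the regulators Oaz1, Oaz2 and Azin1. They were chosen by name from the 47725 genes of the deposited table, each matched 1 row, and all 10 passed the filter on low counts among 17440 genes tested. Controls, labelled PP6fl/fl, were homozygous for a floxed allele of Ppp6c, which encodes the catalytic subunit of protein phosphatase 6. The other mice are labelled cKO, and the series title joins K5 to the floxed allele. K5 is read here as the keratin 5 promoter of basal keratinocytes. Only skin cells without K5 activity, in themselves or in the cells they came from, would then keep the gene. All mice had the C57BL/6J background and were 17 weeks old. Each group had 2 libraries, numbered 2 and 3, of poly(A)-selected RNA from frozen, pulverized skin. Whether the libraries stem from different mice is not stated, so p-values measure only the spread between these samples, which may be technical. Pairs of values below are in the order replicate 2, replicate 3.

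Polyamines are small positively charged molecules that bind RNA and DNA, and cells need them to translate protein and divide. Ornithine decarboxylase makes putrescine from ornithine, and spermidine synthase and spermine synthase then each add an aminopropyl group taken from decarboxylated S-adenosylmethionine. Spermidine/spermine acetyltransferase and 2 oxidases run the path backwards, while antizymes bind ornithine decarboxylase and send it to the proteasome. In mouse skin, ornithine decarboxylase is known for its activity in growing hair follicles and in tumour promotion.

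The 4 libraries held 15837136 to 23407731 estimated counts. Ppp6c stood at 57.8 and 61.8 CPM (counts scaled to library size, with TMM factors) in control against 62.1 and 50.1 CPM in cKO. The groups overlapped, and because the count spans the entire gene and skin holds many cell types, it does not check the deletion. The 7 basal keratinocyte markers were all detected and summed to 11560 to 11970 CPM in control and 12230 to 18780 CPM in cKO. Krt14 alone had a log2 fold change of 1.48, while 5 of the 7 were below 0, from Krt15 at -2.18 to Krt5 at -0.02, the list's median was -0.24, and 0 passed the edgeR QL test described next. At an unadjusted p under 0.05 in that test, 1 was higher and 2 were lower in cKO, against 10.3% and 9.69% of all genes. Of the other tools given there, DESeq2 and the edgeR exact test called 3 each and limma voom 0. In bulk skin, fewer cells of a type and less RNA per cell cannot be told apart.

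Of the 10 polyamine genes, 0 passed edgeR's quasi-likelihood (QL) test at an adjusted p under 0.05, where 1.09% of all genes tested passed, 0.740% higher and 0.350% lower in cKO. The smallest absolute log2 fold change among those passing genes was 1.20, larger than that of any of the 10. At an unadjusted p under 0.05 there were 4 of the 10, Sat1, Odc1 and Smox upward and Sms downward, against 20.0% of all genes, 10.3% upward and 9.69% downward. Of the other tools, limma voom called 0 (1.15% of all genes). DESeq2 called Odc1, Sat1 and Sms (9.85% of all genes with an adjusted p), and so did the edgeR exact test (10.2%). The authors' deposited comparison has Sat1 alone under a false discovery rate of 0.05, where it has 8.82% of the genes tested here. The median log2 fold change of the 10 was 0.25, beside a median near 0 (-0.0014) for all genes tested.

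**Figure D1:**
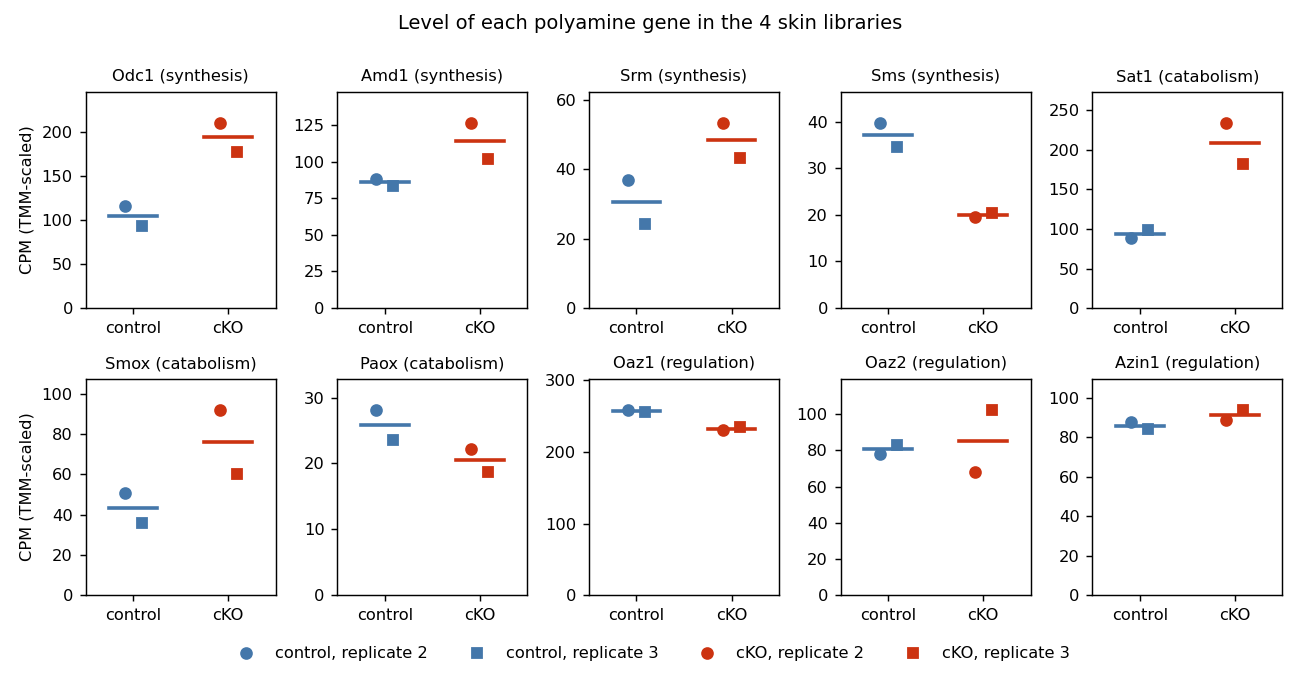
Level of each polyamine gene in CPM (TMM-scaled, y axis from 0) in the 4 libraries; circles are replicate 2, squares replicate 3, and bars the mean of each group. Odc1, Amd1, Srm, Sat1, Smox and Azin1 were higher in both cKO libraries than in both control libraries. Sms, Paox and Oaz1 were lower, and Oaz2 overlapped. Over all genes tested the groups did not overlap for 52.9%.

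Ornithine decarboxylase, Odc1 (ENSMUSG00000011179), measured 116 and 93.4 CPM in control against 211 and 178 CPM in cKO. Both cKO libraries lay above both control libraries. Group means were 105 ± 16.1 CPM for control and 194 ± 23.5 CPM for cKO (SD, n = 2). The log2 fold change was 0.89 ± 0.18 (SE, edgeR QL adjusted p = 0.0961). This is 1.85-fold, with a 95% interval of the fit from 1.32 to 2.59, not adjusted for the number of genes.

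The promoters of the 3 members with the smallest p, Sat1, Sms and Odc1, are shown so that the region before their start can be read beside these values. Each is the 250 bases before a RefSeq transcript start on GRCm38.p6, a later build than the mm8 named in the submitters' processing notes, 5′ to 3′ on the gene's strand. Capitals mark a GC box (GGGCGG on either strand), a motif bound by Sp1, or an E-box (CACGTG, the same on both strands), a motif bound by Myc and related factors. RefSeq gives Sms a pair of starts, and both are shown.
Odc1, chr12:17544623-17544872, plus strand: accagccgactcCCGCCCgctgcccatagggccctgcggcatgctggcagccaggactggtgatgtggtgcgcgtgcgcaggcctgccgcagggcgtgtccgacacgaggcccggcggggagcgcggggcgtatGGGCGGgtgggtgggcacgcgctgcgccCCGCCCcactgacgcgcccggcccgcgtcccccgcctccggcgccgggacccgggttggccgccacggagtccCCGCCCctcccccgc
Sat1, chrX:155216450-155216699, minus strand: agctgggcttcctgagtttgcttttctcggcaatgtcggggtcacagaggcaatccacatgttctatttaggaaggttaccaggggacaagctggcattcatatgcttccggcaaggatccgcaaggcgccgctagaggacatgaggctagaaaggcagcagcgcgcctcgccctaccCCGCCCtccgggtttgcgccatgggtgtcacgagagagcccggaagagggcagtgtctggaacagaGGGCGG
Sms, upstream start, chrX:157492288-157492537, minus strand: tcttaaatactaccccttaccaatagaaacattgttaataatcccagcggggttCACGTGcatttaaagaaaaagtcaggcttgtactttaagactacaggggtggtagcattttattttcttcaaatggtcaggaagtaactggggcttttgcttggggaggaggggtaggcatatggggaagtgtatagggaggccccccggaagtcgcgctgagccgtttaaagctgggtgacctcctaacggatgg
Sms, downstream start, chrX:157491369-157491618, minus strand: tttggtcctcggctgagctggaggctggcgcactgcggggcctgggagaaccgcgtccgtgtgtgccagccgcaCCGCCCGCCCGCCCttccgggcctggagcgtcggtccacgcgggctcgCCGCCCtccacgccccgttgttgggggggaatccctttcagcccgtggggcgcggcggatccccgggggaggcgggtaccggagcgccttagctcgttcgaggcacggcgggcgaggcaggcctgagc

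A GC box was present before Odc1, Sat1 and the downstream Sms start, and in 7 of the 8 members for which the table has a sequence. The same motif occurs in 32.7% of all 32851 windows of this length. Before the downstream Sms start 3 of the 4 GC boxes overlap each other. The E-box was found only before the upstream Sms start, among the 10 windows of these 8 members, and in 6.02% of all windows. The exact letters TATAAA (a form of the TATA box) and TGACTCA (a form of the AP-1 site), on either strand, were in 0 of the members' windows, against 12.4% and 4.46% of all windows. Other forms of these motifs were not searched. These matches describe letters in the windows and do not show that a factor binds.

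Amd1 (ENSMUSG00000075232), S-adenosylmethionine decarboxylase, which makes the aminopropyl donor, measured 88.4 and 83.4 CPM in control against 127 and 102 CPM in cKO. The groups did not overlap, but the cKO libraries were farther from each other than the nearest libraries of the 2 groups. Its log2 fold change was 0.41 ± 0.16 (edgeR QL adjusted p = 0.258), with a 95% interval from -0.01 to 0.84. The near-identical copy Amd2 had 204 and 207 counts in control and 202 and 200 in cKO, a log2 fold change of 0.49 ± 0.22. Reads can be split between these copies, so the share of each is uncertain.

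Spermidine synthase, Srm (ENSMUSG00000006442), and spermine synthase, Sms (ENSMUSG00000071708), catalyse successive aminopropyl transfers and had values on opposite sides of control. Srm measured 36.9 and 24.2 CPM in control against 53.4 and 43.4 CPM in cKO. Its groups did not overlap, while the control libraries were farther apart than the nearest pair of libraries across groups. The log2 fold change of Srm was 0.66 ± 0.26 (edgeR QL adjusted p = 0.266), with a 95% interval from -0.03 to 1.36.

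Sms measured 39.7 and 34.5 CPM in control against 19.5 and 20.3 CPM in cKO. The cKO libraries were close to each other and well below both control libraries. Group means were 37.1 ± 3.67 CPM for control and 19.9 ± 0.62 CPM for cKO (SD, n = 2). The log2 fold change was -0.90 ± 0.16 (edgeR QL adjusted p = 0.0827). The 95% interval ran from -1.33 to -0.47, and in each of 13 alternative settings the value stayed between -0.98 and -0.79.

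Sat1 (ENSMUSG00000025283), the acetyltransferase that is the rate-limiting step of polyamine breakdown and is known to be induced by polyamines themselves, showed the largest difference of the 10. It measured 88.6 and 99.2 CPM in control against 234 and 182 CPM in cKO. Both cKO libraries were far above both control libraries, and cKO replicate 2 was the highest. Group means were 93.9 ± 7.51 CPM for control and 208 ± 36.9 CPM for cKO (SD, n = 2). The log2 fold change was 1.15 ± 0.18 (edgeR QL adjusted p = 0.0700), or 2.22-fold with a 95% interval from 1.58 to 3.10. In the authors' deposited table Sat1 has a log2 fold change of 1.07 and a false discovery rate of 0.00907.

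Smox (ENSMUSG00000027333), spermine oxidase, which turns spermine into spermidine, measured 50.5 and 35.6 CPM in control against 91.9 and 60.0 CPM in cKO. The groups did not overlap, but replicate 2 was well above replicate 3 in each. Its log2 fold change was 0.82 ± 0.29 (edgeR QL adjusted p = 0.232), with a 95% interval from 0.04 to 1.60. Without cKO replicate 2 the log2 fold change was 0.48, and without cKO replicate 3 it was 1.10.

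Paox (ENSMUSG00000025464), the peroxisomal oxidase of acetylated polyamines, measured 28.1 and 23.6 CPM in control against 22.2 and 18.7 CPM in cKO. The gap between the groups was smaller than the difference between replicates in either. The log2 fold change was -0.34 ± 0.20 (edgeR QL adjusted p = 0.425), with a 95% interval from -0.86 to 0.18. Paox overlaps Echs1, a mitochondrial enzyme of fatty acid oxidation, on the opposite strand in GENCODE M21. Echs1 had a log2 fold change of -0.53 ± 0.20, and reads of the overlapping part cannot be told apart because the labels give no strand setting.

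The 3 regulators had the smallest log2 fold changes of the 10, from -0.14 to 0.09. Oaz1 (ENSMUSG00000035242), antizyme 1, measured 259 and 255 CPM in control against 230 and 235 CPM in cKO. Both cKO libraries were slightly lower, with a log2 fold change of -0.14 ± 0.14 and a 95% interval from -0.51 to 0.22 (edgeR QL adjusted p = 0.630). Full-length antizyme is made when polyamines make the ribosome shift its reading frame, so the transcript level is not a measure of the protein.

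Oaz2 (ENSMUSG00000040652), antizyme 2, measured 78.2 and 82.8 CPM in control against 68.0 and 102 CPM in cKO. The cKO libraries lay on either side of control, and the log2 fold change was 0.08 ± 0.23, with a 95% interval from -0.53 to 0.69. Without cKO replicate 3 it was -0.24, so no direction can be given. Azin1 (ENSMUSG00000037458), the antizyme inhibitor that resembles ornithine decarboxylase and frees it from antizyme, measured 87.5 and 83.9 CPM in control against 88.7 and 93.7 CPM in cKO. Its log2 fold change of 0.09 ± 0.12 had a 95% interval from -0.23 to 0.42, whose upper end is a 1.33-fold higher level (edgeR QL adjusted p = 0.742).

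**Figure D2:**
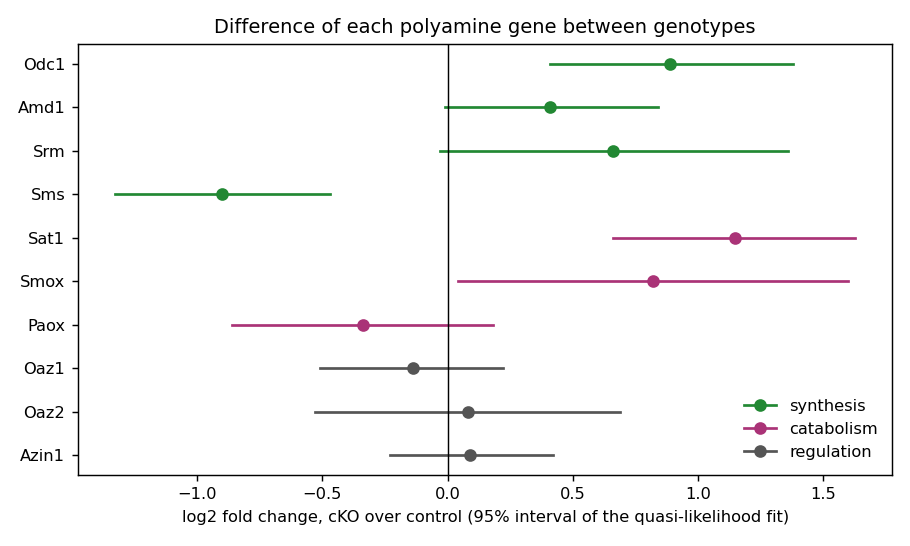
Log2 fold change of each polyamine gene, cKO over control, with the 95% interval of the quasi-likelihood fit (x axis); colours give the role. The intervals of Odc1, Sat1, Smox and Sms lie on 1 side of 0 before adjustment for the number of genes, and those of the 3 regulators span 0.

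In CPM the groups did not overlap for 9 of the 10 members, 6 higher and 3 lower in cKO. Over all genes tested this held for 52.9%, with 25.1% higher and 27.7% lower. The exception was Oaz2. For Oaz1, Azin1 and Paox the distance between the groups was small all the same.

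Levels of different genes were compared in FPKM, the authors' value scaled to transcript length and library size. Oaz1 was the most abundant member in each of the 4 libraries, at 103 ± 1.87 FPKM in control and 88.7 ± 0.83 FPKM in cKO (SD, n = 2). Odc1 at 42.1 ± 6.82 and Sat1 at 34.6 ± 2.49 FPKM came next in control, and in replicate 3 they were nearly level at 37.3 and 36.4 FPKM. In cKO these genes stood at 74.6 ± 10.8 and 73.4 ± 14.7 FPKM and had no settled order, since Sat1 was higher in replicate 2 and Odc1 in replicate 3.

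In control, Oaz2 at 27.5 ± 0.89 and Amd1 at 27.4 ± 1.34 FPKM were level. Srm followed at 19.6 ± 5.88, Paox at 15.0 ± 1.99, Azin1 at 14.1 ± 0.53 and Smox at 11.3 ± 2.87 FPKM, and these neighbours did not differ beyond their spread. Sms was the least abundant in each library, at 6.32 ± 0.68 FPKM in control and 3.23 ± 0.03 FPKM in cKO. In cKO, Amd1 at 34.9 ± 6.08, Srm at 29.6 ± 5.01 and Oaz2 at 27.7 ± 7.26 FPKM did not differ beyond their spread. There Smox at 19.1 ± 6.10 FPKM lay above Azin1 at 14.3 ± 0.22 and Paox at 11.3 ± 1.63 FPKM, although in replicate 3 Smox and Azin1 stood close together at 14.8 and 14.4 FPKM.

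Ratios within a library show how these levels stood to each other. Odc1 over the sum of Oaz1 and Oaz2 was 0.358 and 0.288 in control and 0.734 and 0.553 in cKO. Both cKO values exceeded both control values, a ratio of group means of 1.99. Srm over Sms was 3.49 and 2.64 in control and 10.3 and 8.01 in cKO. Here too the groups did not overlap, and the cKO mean of 9.17 ± 1.63 was 2.99 times the control mean of 3.06 ± 0.60 (SD, n = 2).

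Odc1 over Azin1 was 3.25 and 2.72 in control and 5.82 and 4.64 in cKO. The groups were again apart. By contrast, the summed catabolic enzymes over the summed synthesis enzymes gave 0.591 and 0.697 in control and 0.759 and 0.693 in cKO, and these groups overlapped. Synthesis enzymes summed to 95.4 ± 14.7 FPKM in control and 142 ± 21.8 FPKM in cKO, and catabolic enzymes to 60.9 ± 2.38 and 104 ± 22.5 FPKM. Within these sums Sms and Paox were lower in cKO, while the other enzymes were higher. Sat1 made up 52.5% and 61.4% of the catabolic sum in control and 70.0% and 71.6% in cKO. No p is given for these ratios; an exact two-sided permutation test of 2 against 2 libraries cannot go below 0.333, and no model was fitted to them.

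**Figure D3:**
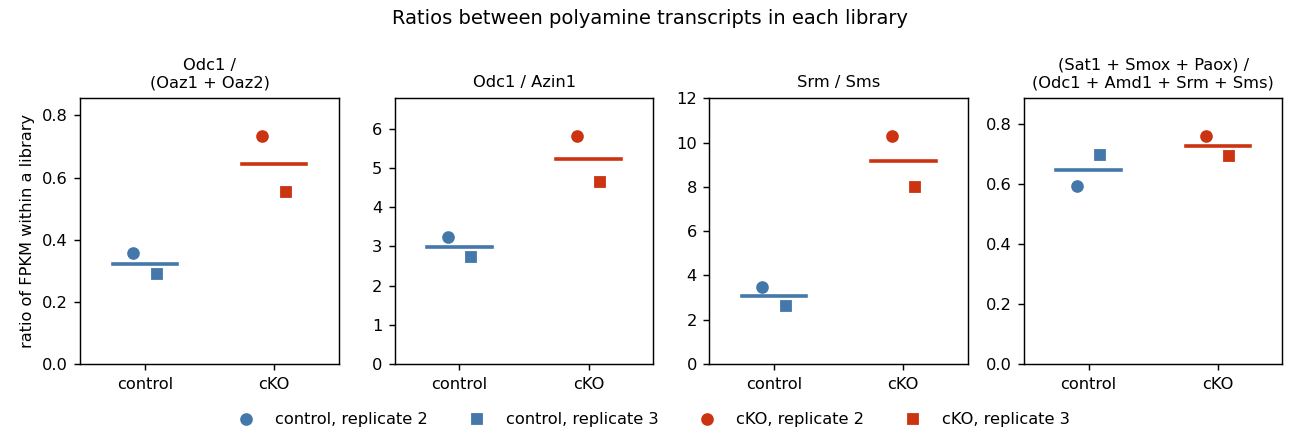
Ratios of FPKM between polyamine transcripts within each library (y axes from 0); circles are replicate 2, squares replicate 3, and bars the group mean. Srm over Sms lay at 2.64 and 3.49 in control and at 8.01 and 10.3 in cKO, while the ratio of catabolic to synthesis enzymes overlapped.

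Among the members the order of the replicates was mixed. In 5 of 10, Odc1, Amd1, Srm, Smox and Paox, replicate 2 was above replicate 3 in both groups. This held for 34.8% of all genes tested. Oaz2 had the reverse order in both groups, and Sat1, Sms, Oaz1 and Azin1 changed order between the groups. All 15 hair follicle markers and all 10 cell cycle genes tested had replicate 2 above replicate 3 in both groups. None of either list was at 0 in all libraries. The hair follicle list summed to 1128 and 172 CPM in control and to 6047 and 1723 CPM in cKO. The cell cycle list summed to 669 and 364 CPM in control and to 1010 and 416 CPM in cKO. Between the genotypes 0 of 15 and 0 of 10 genes of these lists passed the edgeR QL test, with 6 and 0 at an unadjusted p under 0.05 and medians of 2.61 and 0.50. By limma voom 0 and 0 were called, by DESeq2 5 and 0, and by the exact test 5 and 0. Odc1 is known to be high in hair bulbs and dividing cells, and the part of these lists in the values of Odc1, Srm and Smox was not tested.

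Markers of other cell types also differed between the genotypes, in both directions. Of 9 neutrophil markers tested, 5 rose and 0 fell, where 0.740% of all genes rose, and the list summed to 81.4 and 95.6 CPM in control and to 1507 and 1004 CPM in cKO. Il1r2 did not pass and was the only tested marker below 0, with a log2 fold change of -0.45 ± 0.19. It made up most of the control sum, at 58.7 and 78.8 CPM, against 52.2 and 48.2 CPM in cKO. Of the 10 listed neutrophil markers, among them Ly6g, which was too low for the edgeR test, DESeq2 called 9, the exact test 8 and voom 4. Of 9 macrophage markers 1 rose and 0 fell, Cd14 (edgeR QL adjusted p = 0.0496), and the sum went from 461 and 642 CPM in control to 1204 and 1221 CPM in cKO. Without adjustment 7 were under 0.05, all higher, against 10.3% of all genes. The calls were 7 in DESeq2, 7 in the exact test and 0 in voom. Of 6 mast cell markers 1 rose, Cpa3, and all 6 were higher at an unadjusted p under 0.05, against the same 10.3%. DESeq2 called 6, the exact test 6 and voom 1. The sums were 112 and 138 CPM in control and 362 and 600 CPM in cKO.

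Of 8 sebaceous gland markers 1 fell, Scd3, and 7 were lower at an unadjusted p under 0.05, against 9.69% of all genes. DESeq2 called 6, the exact test 5 and voom 1. The sums were 4761 and 5692 CPM in control and 2005 and 1248 CPM in cKO. Of the fibroblast, endothelial and T cell markers 0 passed. At an unadjusted p under 0.05, 4 of 6 fibroblast and 4 of 5 endothelial markers were higher and 5 of 6 T cell markers lower in cKO. Over all genes tested 10.3% were higher and 9.69% lower at that level. DESeq2, the exact test and voom called 4, 4 and 0 fibroblast and 3, 3 and 0 endothelial markers. They called 2, 4 and 0 T cell markers. The fibroblast markers summed to 7187 and 6197 CPM in control and to 19320 and 11940 CPM in cKO. Skeletal muscle markers set 1 library apart, with 1842 CPM in cKO replicate 2 against 8435 to 12570 CPM in the other 3 libraries. Of 6 suprabasal keratinocyte, 5 adipocyte and 5 melanocyte markers 0 passed. At an unadjusted p under 0.05, 2 suprabasal markers were higher and 3 adipocyte markers lower. DESeq2, the exact test and voom called 2, 2 and 0 suprabasal, 2, 1 and 0 adipocyte and 0 melanocyte markers. Suprabasal sums were 11330 and 11240 CPM in control and 17400 and 30050 CPM in cKO. Of the suprabasal markers 3 had a log2 fold change above 0 and 3 below. All 5 melanocyte markers had replicate 2 above replicate 3 in both groups. No marker tested in these lists was at 0 in all libraries. Cd14, Cpa3, Scd3, Il1r2 and Ly6g are named here after their values were seen. The part of these cell types in the values of the polyamine and arginine genes was not tested.

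The supply of arginine and ornithine showed the only passing gene among the 6 neighbouring pathway lists. Of its 7 tested genes 1 rose and 0 fell, where 0.740% of all genes rose. The median log2 fold change of 0.76 is the value of Arg2, which had an SE of 0.85. Arg2 measured 11.3 and 2.20 CPM in control against 15.6 and 7.34 CPM in cKO, and the groups overlapped. At an unadjusted p under 0.05 there were 4, all higher, against 10.3% of all genes. DESeq2 and the exact test called 3 each and voom 1. Otc and Agmat of the 9 listed were too low to test. Ass1, argininosuccinate synthase, which rebuilds arginine from citrulline, measured 24.8 and 18.1 CPM in control against 77.2 and 75.0 CPM in cKO. Both cKO libraries were far above control, a log2 fold change of 1.83 ± 0.20 (edgeR QL adjusted p = 0.0480). The call was lost without control replicate 2 (adjusted p = 0.171) and without control replicate 3 (0.244), where 0 genes of the whole table passed. In such a fit 1 control library stands alone and is assumed to vary like the cKO pair.

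Arg1, arginase 1, which makes the ornithine that Odc1 uses, measured 20.3 and 33.7 CPM in control against 99.6 and 221 CPM in cKO. The groups were well apart, but the cKO libraries differed widely, and the log2 fold change of 2.57 ± 0.49 did not pass (edgeR QL adjusted p = 0.0883). The other tools were divided, as the adjusted p was 3.41e-06 in DESeq2, 5.67e-05 in the edgeR exact test and 0.0886 in limma voom. In the authors' deposited table Arg1 has a false discovery rate of 3.53e-07. Slc7a1, a transporter of cationic amino acids such as arginine, measured 52.2 and 27.7 CPM in control against 112 and 77.3 CPM in cKO. Its groups did not overlap, and the log2 fold change was 1.25 ± 0.38 (adjusted p = 0.178). The other tested genes of the list, among them the mitochondrial arginase Arg2, had log2 fold changes from -0.13 to 0.76.

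**Figure D4:**
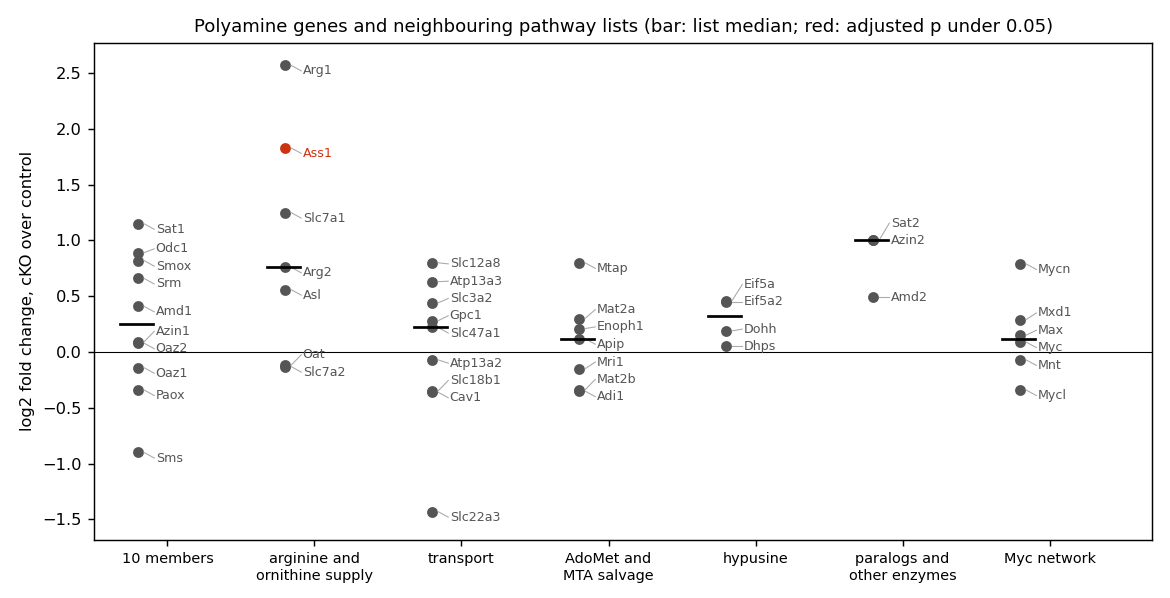
Log2 fold change, cKO over control (y axis), of the 10 polyamine genes and of the tested genes of 6 neighbouring pathway lists; bars are list medians and red marks an adjusted p under 0.05. Ass1 at 1.83 is the only red point, Arg1 at 2.57 is the highest and Slc22a3 at -1.43 the lowest.

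Of 9 tested genes of polyamine and amino acid transport, 0 passed the edgeR QL test, 3 had an unadjusted p under 0.05, and DESeq2 called 2, the exact test 1 and voom 0. Atp13a3, a P5B-type ATPase that carries polyamines into cells, measured 84.5 and 82.5 CPM in control against 126 and 133 CPM in cKO. The replicates agreed closely, with a log2 fold change of 0.63 ± 0.12 (edgeR QL adjusted p = 0.0898). Slc22a3, an organic cation transporter that also carries polyamines, measured 4.86 and 6.83 CPM in control against 2.48 and 1.85 CPM in cKO (log2 fold change -1.43 ± 0.36; adjusted p = 0.130). Slc3a2, the heavy chain of amino acid exchangers, had 0.44 ± 0.14. The list's median was 0.22.

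Of 7 tested genes of S-adenosylmethionine formation and methylthioadenosine salvage, 0 passed, 1 reached an unadjusted p under 0.05, and 0 were called in DESeq2, voom or the exact test. That gene was Mtap, which recycles the methylthioadenosine left by spermidine and spermine synthesis. It measured 20.5 and 15.4 CPM in control against 37.1 and 25.6 CPM in cKO (log2 fold change 0.80 ± 0.27; edgeR QL adjusted p = 0.217). Mat2a, the catalytic subunit of methionine adenosyltransferase, had 0.30 ± 0.14 and its regulatory partner Mat2b -0.34 ± 0.15. The median was 0.12.

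Spermidine is also the source of hypusine, a modified lysine of the translation factor eIF5A. All 4 genes of that path had log2 fold changes above 0, with a median of 0.32. By edgeR QL 0 passed, 0 reached an unadjusted p under 0.05, and 0 were called in DESeq2, voom or the exact test. Eif5a measured 445 and 373 CPM in control against 619 and 504 CPM in cKO (log2 fold change 0.46 ± 0.21). The groups did not overlap, while the replicates of each group were farther apart than the nearest libraries of the 2 groups. Eif5a2 had 0.45 ± 0.22 and Dohh, the hydroxylase of the last step, 0.19 ± 0.14.

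Among paralogs of the members and other polyamine enzymes 3 of 6 were tested and 0 passed. Of these, 1 reached an unadjusted p under 0.05, and 0 were called in DESeq2, voom or the exact test. Azin2, a second antizyme inhibitor, measured 6.23 and 9.25 CPM in control against 13.9 and 17.1 CPM in cKO. Both cKO libraries were higher, with a log2 fold change of 1.0 ± 0.30 (edgeR QL adjusted p = 0.174). Sat2 had 27 and 37 counts in control and 22 and 69 in cKO, and the groups overlapped. Oaz3, an antizyme of the testis, had 1 and 5 counts in control and 3 and 3 in cKO.

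Odc1 is a known target of Myc, and the 6 genes of the Myc network had a median log2 fold change of 0.12. By edgeR QL 0 passed, 0 reached an unadjusted p under 0.05, and 0 were called in DESeq2, voom or the exact test. Mxd1, a repressor that competes for Max, had 0.29 ± 0.13 and Max 0.15 ± 0.15. Mycl had -0.34 ± 0.43, and its sign turned without cKO replicate 3. Myc itself, named here after its values were seen, measured 59.5 and 55.5 CPM in control against 74.8 and 47.3 CPM in cKO. Its cKO libraries lay on either side of control. Mycn, also named after its values were seen, had the list's largest log2 fold change, 0.79 ± 1.35. It measured 18.0 and 1.41 CPM in control against 28.6 and 5.01 CPM in cKO, with replicate 2 far above replicate 3 in both groups.

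The genes with the profile most like Odc1 were Rnf149, Polr3g and 2610524H06Rik, by the distance between centred log2 CPM over the 4 libraries among 12745 other genes whose mean reached 5 CPM. Their distances were 0.0434, 0.0611 and 0.0698 log2 units, and 44 genes lay within 0.2. Polr3g, a subunit of RNA polymerase III, measured 45.3 and 37.7 CPM in control against 87.0 and 72.6 CPM in cKO. For Sat1 the nearest were Fam83a (0.114), the clock repressor Cry1 (0.114) and Fosl1 (0.151), an AP-1 subunit, with 8 genes within 0.2. Fosl1 measured 7.56 and 7.36 CPM in control against 18.0 and 14.6 CPM in cKO. With 4 libraries, many genes share such a profile, and the likeness is a description only.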

How the data were processed

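TruSeq libraries were prepared from poly(A)-selected RNA of mouse skin, 2 per genotype, per the labels' protocols. Sample titles gave the groups and numbers. Columns headed Ctr belong to PP6fl/fl, as no group but cKO remains. The authors' expected counts per gene, whole numbers in the deposited table, come from RSEM per the submitters' processing notes, which also name mm8 and edgeR. Aligner, annotation release and use of strand were not given in the sources used here. FPKM per library, and a p-value, false discovery rate and log2 fold change per gene, are the authors' and were deposited in the same table. Of 47725 identifiers, 98.9% are in GENCODE M21, used for names and overlaps only. A further 4 emptied lines were not analysed here.

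Genes were filtered with filterByExpr, scaled with TMM and tested with glmQLFit and glmQLFTest in edgeR 4.0.16 (R 4.3.3), with no covariate, Benjamini-Hochberg adjustment over all 17440 genes tested and a threshold of 0.05. CPM is TMM-scaled. SE is the unshrunken log2 fold change over the square root of F, and 95% intervals use the fit's degrees of freedom. Alternatives used DESeq2 1.42.0, limma 3.58.1, the edgeR exact test, other scalings and filters, log2(FPKM + 0.1) and log2(FPKM + 1), each library left out and the replicate number as a block. Scripts were tested on simulated data, in 3 runs with 200 of 17440 genes changed. There the edgeR QL test recovered 4% of 2-fold and 52% of 4-fold changes, so it missed most simulated differences of 2-fold. The changed genes were drawn at random from all genes tested, at any count. Rates for the members, or with another share of genes changed, may differ. Of the genes called in these runs, 16.6% were unchanged in edgeR QL, 16.5% in limma voom, 37.1% in DESeq2 and 35.3% in the exact test. Replicates differed by far more than sampling noise (chi-square per gene 27.1 in control and 106 in cKO). Members had 306 to 6227 counts per library. Named are the 10 members, in each list the passing genes and the 3 with the smallest p, the 3 nearest profiles of Odc1 and Sat1, the paralogs and Ppp6c. Members and lists were chosen with earlier results of these data known. Promoter sequences are RefSeq's on GRCm38.p6, matched by symbol for 8 of 10 members.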

Additional observations from a re-analysis of the deposited data

How the results depend on the processing

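Over 13 alternatives Odc1, Amd1, Srm, Sms, Sat1, Smox, Paox, Oaz1 and Azin1 kept their direction, and Oaz2 turned to -0.014 with log2(FPKM + 0.1), -0.013 with log2(FPKM + 1) and -0.237 without cKO replicate 3. Leaving out single libraries put Oaz2 between -0.237 and 0.345 and Mycl between -1.068 and 0.150, the positive value of Mycl coming without cKO replicate 3. In place of 190 genes over the whole table, DESeq2 called 1769, the exact test 1780, limma on log2(FPKM + 0.1) 295 and on log2(FPKM + 1) 383, and edgeR with no filter on low counts 883. In place of 0 members, DESeq2 and the exact test called 3 each (Odc1, Sat1, Sms) and the fit with no filter 1 (Sat1). In place of 1 gene of arginine and ornithine supply, DESeq2 and the exact test called 3 each and the fit with no filter 2. In place of 0 transport genes, DESeq2 called 2 and the exact test 1. With single libraries left out, the table gave 0 to 1664 genes, the members 0 to 1, the arginine list 0 to 2 and the transport list 0 to 1; the value 0 for the whole table came without control replicate 2 and without control replicate 3. Sat1 had an adjusted p of 0.0280 without cKO replicate 2 and 0.0277 without cKO replicate 3. In each of these fits a lone library is assumed to vary like the pair of the other group, so they say little about the stability of a call. The cause of these differences was not tested.

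The libraries share the numbers 2 and 3, which the labels do not tie to a litter, batch or day. Across genes, the difference of replicate 2 from 3 correlated at 0.414 between the groups. With the number as a replicate block, 1177 genes passed over the whole table, 3 members (Odc1, Sat1 and Smox, adjusted p = 0.0390, 0.0454 and 0.0420) and 3 arginine genes. The block takes a further coefficient from the 4 libraries, so less is left to measure each gene's own spread than in the main fit. In the other 5 pathway lists and the cell cycle list 0 passed with or without the block. Among markers, 11 hair follicle genes passed in place of 0, 7 neutrophil in place of 5, 6 macrophage and 5 mast cell in place of 1 each, and 1 T cell, 1 fibroblast and 1 adipocyte gene in place of 0 each.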
